A study of Mus musculus with 11 samples.

Results

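The acute phase proteins of the liver were examined through 10 genes, Saa1, Saa2, Saa3, Apcs, Orm1, Orm2, Lcn2, Hp, Hpx and Hamp, in mouse livers with forced Notch activation. Members were every probe of these genes, named through the RefSeq accession that the array design gives for the probe, which gave 11 of the 56605 probes on the array and 10 of the 22911 genes that could be named. Lcn2 had a second probe and each other gene had a single one. All 11 probes were well above background on all 11 arrays, as the scanner software flagged it, so no member was lost to the filter on dim probes. The livers came from male C57Bl6/J mice injected intraperitoneally at 8 weeks of age with adeno-associated virus 8 (AAV8), a vector that infects hepatocytes efficiently, and taken 5 days later. GFP mice (3 arrays) were given the vector for green fluorescent protein at 6e+11 viral genomes each. NICD1 mice (3 arrays) were given the vector for the intracellular domain of Notch1 at 3e+11 viral genomes together with the GFP vector at 3e+11, and NICD2 mice (3 arrays) that for Notch2 with the GFP vector at the same doses. NICD1&2 mice (2 arrays) were given both NICD vectors at 3e+11 each and no GFP vector, so the amount of GFP vector differed between groups and cannot be told apart from the NICD vectors. All mice thus carried 6e+11 viral genomes, and the transgenes were driven by the CMV promoter, which is not specific to hepatocytes. No group was left uninjected, so every value is relative to livers that also carried AAV8.

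The acute phase response is the change in liver secretion that follows injury or infection. Macrophages release interleukin-1, interleukin-6 and tumour necrosis factor, which act on hepatocytes through NF-kappaB, C/EBP factors and STAT3. Hepatocytes then make more of the positive acute phase proteins and less of negative ones such as albumin and transthyretin. The serum amyloid A proteins (Saa1, Saa2 and Saa3) ride on high-density lipoprotein, and Saa3 is also made by macrophages and fat cells. Apcs encodes serum amyloid P, the main pentraxin of the mouse acute phase, and Orm1 and Orm2 encode orosomucoids, carriers of basic drugs and lipids in plasma. Lcn2 (lipocalin 2) withholds iron from bacteria by binding their siderophores, Hp (haptoglobin) binds free haemoglobin, Hpx (hemopexin) binds free haem, and Hamp encodes hepcidin, which closes the iron exporter ferroportin. Notch receptors, once cut, release the intracellular domain to the nucleus, where it activates genes together with the DNA-binding protein RBPJ.

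Between 57.0% and 62.0% of the spots on each array were well above background, and no spot was saturated. Array values are on a log2 scale on which 0 stands for the 75th percentile of that array, and each further unit multiplies the signal by 2. Each of the 2 slides held arrays of every group. The 9 hepatocyte markers on a fixed list were well above background on every array. Their summed linear levels, as multiples of the 75th percentile, were 3825 to 4052 with GFP and 3455 to 4056 with NICD1. They were 3777 to 4316 with NICD2 and 4305 to 4367 with NICD1&2, the last above all GFP and NICD1 arrays. The Notch1 probe lay between 0.31 and 0.70 on GFP arrays and between 0.57 and 0.95 on NICD1 arrays, with -0.38 to 0.64 on NICD2 arrays and 0.32 and 1.11 on the NICD1&2 arrays. The Notch2 probe lay between 1.66 and 1.86 on GFP arrays, 1.86 and 2.06 on NICD2 arrays and 1.98 and 2.10 on NICD1 arrays, and at 1.78 and 1.75 on the NICD1&2 arrays, inside the GFP range. These probes thus did not separate the groups by the vector given. Whether these probes lie in the transferred parts is not given in the sources used here. Hes1, a target of Notch signalling, had means of -2.49 with GFP, -2.51 with NICD1, -0.85 with NICD2 and -1.12 with NICD1&2. Its NICD1 arrays overlapped the GFP arrays, and the NICD2 and NICD1&2 arrays lay above both.

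The upstream sequences of members that the results turn on are shown because the factors named above act there. They are the 250 bases before the start site, read 5′ to 3′ on the strand of the gene, from RefSeq with build GRCm38.p6, which held such windows for 8 of the 10 genes, all but Orm1 and Hp. Capitals mark matches, on either strand, to the C/EBP motif TTGCNNAA, the STAT motif TTCNNNGAA, the BMP response element GGCGCC and the RBPJ core TGGGAA.
Saa1 (chr7:46742981-46743230, minus strand): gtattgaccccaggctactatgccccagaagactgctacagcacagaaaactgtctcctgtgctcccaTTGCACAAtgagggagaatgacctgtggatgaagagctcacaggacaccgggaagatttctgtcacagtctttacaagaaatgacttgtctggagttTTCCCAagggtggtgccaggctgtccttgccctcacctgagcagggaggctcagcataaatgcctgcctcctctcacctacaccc
Saa2 (chr7:46751583-46751832, plus strand): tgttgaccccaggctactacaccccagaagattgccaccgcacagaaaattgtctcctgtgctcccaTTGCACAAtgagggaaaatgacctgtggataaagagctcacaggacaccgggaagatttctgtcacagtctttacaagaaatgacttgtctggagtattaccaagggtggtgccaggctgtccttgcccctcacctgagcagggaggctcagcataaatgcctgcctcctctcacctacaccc
Apcs (chr1:172895055-172895304, minus strand): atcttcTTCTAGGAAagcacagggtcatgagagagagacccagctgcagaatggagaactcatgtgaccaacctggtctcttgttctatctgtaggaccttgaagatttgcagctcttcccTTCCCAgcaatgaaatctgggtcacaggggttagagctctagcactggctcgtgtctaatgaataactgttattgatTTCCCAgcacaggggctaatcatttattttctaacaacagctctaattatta
Lcn2 (chr2:32387740-32387989, minus strand): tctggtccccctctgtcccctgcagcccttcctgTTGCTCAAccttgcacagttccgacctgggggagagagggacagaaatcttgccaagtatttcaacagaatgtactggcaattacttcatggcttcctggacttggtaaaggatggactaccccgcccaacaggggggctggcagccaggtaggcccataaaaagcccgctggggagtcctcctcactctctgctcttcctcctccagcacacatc
Hamp (chr7:30944030-30944279, minus strand): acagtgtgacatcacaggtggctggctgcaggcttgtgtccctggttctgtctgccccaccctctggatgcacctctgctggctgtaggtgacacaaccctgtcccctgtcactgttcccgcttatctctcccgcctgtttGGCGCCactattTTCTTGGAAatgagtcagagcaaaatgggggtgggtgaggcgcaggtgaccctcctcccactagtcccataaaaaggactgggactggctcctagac
The Saa1 and Saa2 windows were 94.8% identical after alignment, with 238 identical bases, while Saa1 and Saa3 were 48.5% identical. The C/EBP motif lay in 6 of the 8 windows (Saa1, Saa2, Saa3, Orm2, Lcn2 and Hpx) and in 9.56% of all 32851 windows. The STAT motif lay in Apcs and Hamp and in 7.02% of all windows, and the BMP element lay in Hamp, just upstream of its STAT match, and in 9.59% of all windows. The RBPJ core lay in Saa1, Apcs, Orm2 and Hpx and in 21.6% of all windows. At the place of the Saa1 match the Saa2 window lacked those letters. The NF-kappaB consensus was in 0 of the 8 windows and in 3.90% of all windows. No matches overlapped, and each match is a description of letters, not of binding.

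**Figure D1:**
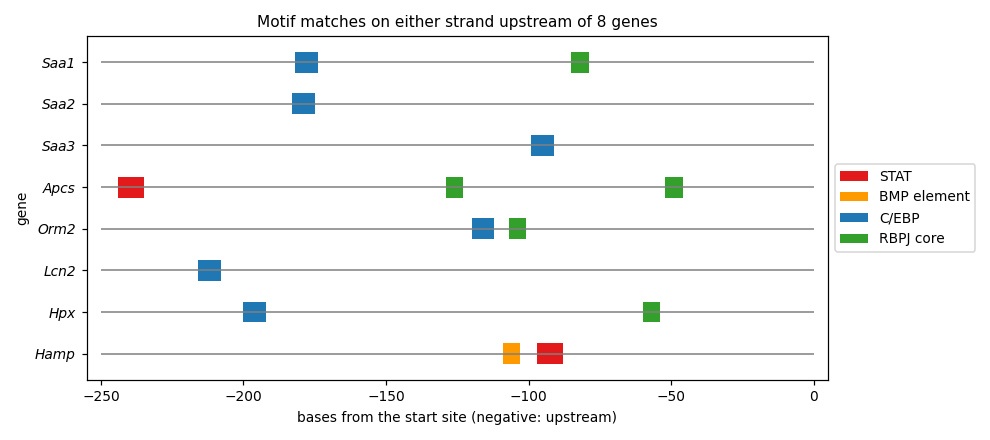
Matches to 4 motifs (coloured blocks, either strand) in the 250 bases upstream of the start site of 8 acute phase genes, with the distance from the start in bases on the x axis. The C/EBP blocks of Saa1 and Saa2 lie at almost the same distance, the RBPJ core is present in Saa1 and absent from the Saa2 window, and Hamp carries the BMP element next to a STAT match.

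With NICD1, all 10 genes had lower means than with GFP, from a log2 difference of -1.53 for Saa1 to -0.02 for Hamp, with a median of -0.36 beside 0.01 over all tested probes. After quantile normalization, and also without GFP array 1, 9 genes were lower and 1 higher, with medians of -0.32 and -0.27. None of the 10 passed the limma test at an adjusted p under 0.05, at which 0.00832% of tested probes were called. At an unadjusted p under 0.05, 5 of the 10 genes (Saa1, Saa2, Apcs, Orm1 and Orm2) differed, against 5.48% of all probes. After quantile normalization 4 did, and with single arrays left out 4 to 6 did. By the definition of altered that the study used, an unadjusted P under 0.15 with a fold change over 1.8, Saa1 and Saa2 were altered, against 2.22% of probes. For 6 of the 10 genes (Saa1, Saa2, Apcs, Orm1, Orm2 and Hpx) every NICD1 array lay below every GFP array, while 12.4% of all probes had groups that did not overlap in either direction.

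With NICD2, 7 genes had lower means and 3 (Lcn2, Hp and Hpx) higher ones, and the median log2 difference was -0.25 beside 0.02 over all probes. Without GFP array 1 the median was -0.09, with 6 genes lower and 4 higher. None was called, against 0.0527% of probes, and 2 (Apcs and Orm2) had an unadjusted p under 0.05, against 6.81%. That count was 4 without GFP array 2 and 1 without NICD2 array 3. None was altered by the definition of the study, against 1.98% of probes. Apcs and Orm2 were also the 2 genes whose arrays did not overlap, both lower with NICD2, against 13.4% of probes.

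With NICD1&2, 6 genes had higher and 4 lower means than with GFP, with a median log2 difference of 0.08. The median over all probes was itself shifted by 0.12, and relative to it Apcs was at -0.93, Saa1 at -0.81, Saa2 at -0.74, Orm2 at -0.19, Hp at 0.20, Hpx at 0.13 and Lcn2 at 0.39. None was called, against 0.0998% of probes, and 2 (Apcs and Hp) had an unadjusted p under 0.05, against 14.8%. With single arrays left out that count was 1 to 3, the lowest without GFP array 1 or NICD1&2 array 2 and the highest without GFP array 2 or 3. The study definition took in 0 of the 10 genes and 6.23% of probes. Arrays did not overlap for Apcs, which was lower, and for Hp and Hpx, which were higher, against 34.5% of probes. After quantile normalization, and also without GFP array 2, 3 genes had higher and 7 lower means, with medians of -0.08 and -0.12, so the split between the directions was not stable. The 3 comparisons share the 3 GFP arrays.

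**Figure D2:**
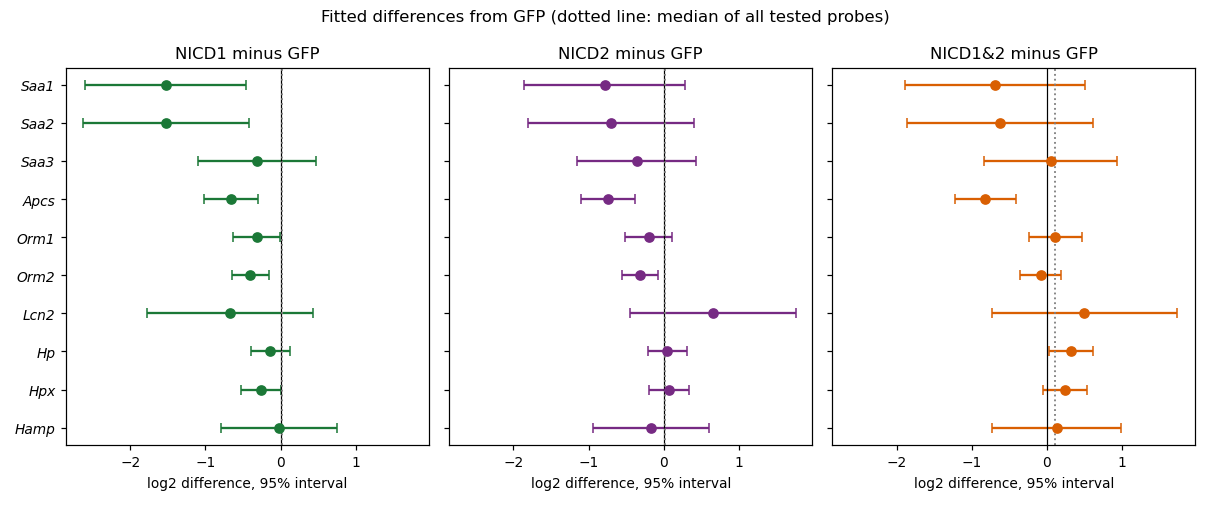
Fitted log2 differences of the 10 acute phase genes from GFP (points) with 95% intervals (bars) for NICD1, NICD2 and NICD1&2, with the median of all tested probes as a dotted line. Apcs lies left of 0 with its whole interval in all 3 panels, and the intervals of Saa1, Saa2, Saa3 and Lcn2 are the widest.

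Saa1 had log2 values of 7.69, 5.36 and 6.46 on the GFP arrays 1 to 3, of 4.93, 5.26 and 4.73 with NICD1, of 5.55, 5.90 and 5.71 with NICD2, and of 5.71 and 5.92 with NICD1&2. The 3 NICD1 arrays were the lowest of the 11, just under GFP array 2, whereas the NICD2 and NICD1&2 arrays lay inside the GFP range. Group means were 6.50 ± 1.17 (SD, n = 3) with GFP, 4.97 ± 0.27 (n = 3) with NICD1, 5.72 ± 0.18 (n = 3) with NICD2 and 5.81 ± 0.15 (n = 2) with NICD1&2. The difference of NICD1 from GFP was -1.53 (SE 0.47, adjusted p = 0.781), a 2.89-fold lower level. As this was whole liver, fewer cells of a type and less RNA per cell cannot be told apart. The difference was -1.59 within slide 1 and -1.46 within slide 2. Without GFP array 1, the highest of all, it was -0.94 (adjusted p = 0.999), and without GFP array 2 it was -2.10 (adjusted p = 0.317).

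Saa2 showed the same order of arrays as Saa1 in almost every position. Its log2 values were 8.52, 6.10 and 7.26 with GFP, 5.65, 6.07 and 5.58 with NICD1, 6.47, 6.73 and 6.56 with NICD2, and 6.53 and 6.82 with NICD1&2. The NICD1 arrays again lay under all GFP arrays, with the highest NICD1 array at 6.07 and the lowest GFP array at 6.10. The difference of NICD1 from GFP was -1.53 (SE 0.49, adjusted p = 0.801), and -0.92 without GFP array 1. With NICD2 the differences from GFP were -0.78 (SE 0.47, adjusted p = 0.845) for Saa1 and -0.70 (SE 0.49, adjusted p = 0.874) for Saa2. Without GFP array 1 these were -0.19 and -0.09. With NICD1&2 they were -0.69 (SE 0.53, adjusted p = 0.524) and -0.62 (SE 0.55, adjusted p = 0.575), and without GFP array 1 they were -0.10 and -0.01. The distance between the 2 probes was nearly constant, 0.72 to 0.92 on the log2 scale over the 11 arrays (SD 0.06). Saa1 and Saa2 are near-identical copies whose names have been exchanged in the past, and each carries the name of the other as a synonym in RefSeq. How far each probe reads the other transcript is not known, so the pair is given as uncertain between the copies.

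Saa3, the member of the family also made outside hepatocytes, had log2 values of 1.86, 1.58 and 3.14 with GFP, 1.63, 1.92 and 2.09 with NICD1, 1.78, 1.85 and 1.88 with NICD2, and 2.41 and 2.09 with NICD1&2. GFP array 3 stood highest and GFP array 2 lowest, so the GFP arrays enclosed all 8 NICD arrays. The difference from GFP was -0.32 (SE 0.35, adjusted p = 0.929) with NICD1 and -0.36 (SE 0.35, adjusted p = 0.932) with NICD2, and both turned positive, to 0.16 and 0.11, without GFP array 3. The array that was highest for Saa3 was thus not the one that was highest for Saa1 and Saa2.

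Apcs was the gene that separated the GFP arrays from all others. Its log2 values were 3.38, 3.11 and 3.01 with GFP, 2.33, 2.45 and 2.74 with NICD1, 2.31, 2.69 and 2.28 with NICD2, and 2.32 and 2.38 with NICD1&2. All 8 NICD arrays, at 2.28 to 2.74, lay below all 3 GFP arrays, at 3.01 to 3.38. The differences were -0.66 (SE 0.16, adjusted p = 0.694) with NICD1, -0.74 (SE 0.16, adjusted p = 0.259) with NICD2 and -0.82 (SE 0.18, adjusted p = 0.143) with NICD1&2, that is 1.58-, 1.67- and 1.76-fold lower. None passed the threshold, although all 3 intervals lay below 0. With normexp background correction and quantile normalization, the difference with NICD1&2 was -0.97 and passed it (adjusted p = 0.0157). Within slides the NICD1 difference was -0.92 on slide 1 and -0.42 on slide 2, the NICD2 difference -0.75 and -0.73, and the NICD1&2 difference -0.92 and -0.63. Each array left out in turn kept the sign of all 3. Between the NICD groups the Apcs arrays overlapped in every pair.

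**Figure D3:**
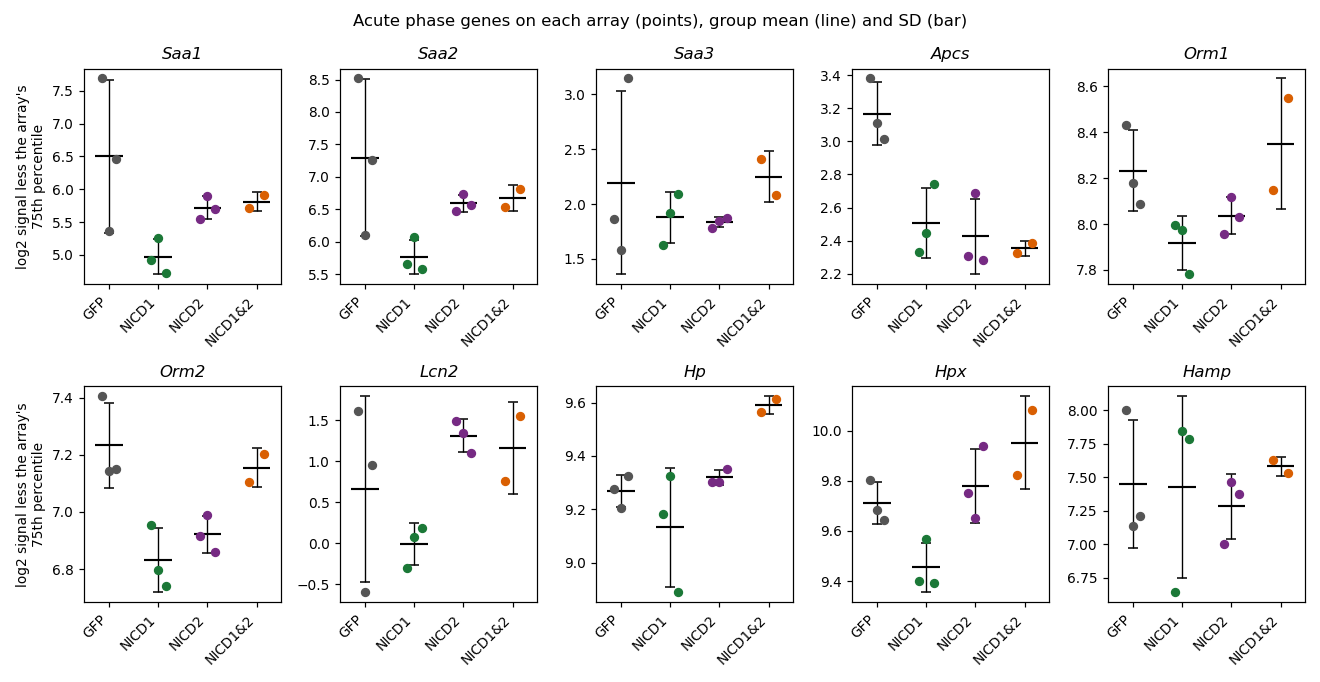
Log2 signal less the 75th percentile of the array for the 10 acute phase genes on each of 11 arrays (points), with group mean (line) and SD (bar) for GFP, NICD1, NICD2 and NICD1&2 and a separate y axis for each gene. The GFP points spread over more than 2 log2 units for Saa1, Saa2 and Lcn2, and all NICD points of Apcs lie below its GFP points.

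The orosomucoids had small differences and a narrow spread. Orm1 had log2 values of 8.43, 8.18 and 8.09 with GFP, 8.00, 7.97 and 7.78 with NICD1, 7.96, 8.12 and 8.03 with NICD2, and 8.15 and 8.55 with NICD1&2. Orm2 had 7.41, 7.14 and 7.15 with GFP, 6.96, 6.80 and 6.74 with NICD1, 6.92, 6.99 and 6.86 with NICD2, and 7.11 and 7.20 with NICD1&2. For Orm2 every NICD1 and NICD2 array lay below every GFP array, while the NICD1&2 arrays reached into the GFP range. The Orm2 difference from GFP was -0.40 (SE 0.11, adjusted p = 0.741) with NICD1, -0.31 (SE 0.11, adjusted p = 0.593) with NICD2 and -0.08 (SE 0.12, adjusted p = 0.750) with NICD1&2. The last was -0.26 after quantile normalization and -0.36 with normexp before it, beside -0.33 and -0.36 with NICD2, so Orm2 was not shown to differ between these groups. Orm1 differed by -0.32 (SE 0.14, adjusted p = 0.901), -0.20 (SE 0.14, adjusted p = 0.881) and 0.12 (SE 0.15, adjusted p = 0.714) in the same order. None of these 6 values passed the threshold. Without GFP array 1 the Orm1 difference was -0.22 with NICD1 and -0.10 with NICD2. Within slides the Orm2 difference with NICD1 was -0.32 and -0.38 and that with NICD2 was -0.32 and -0.29.

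Lcn2 differed most between NICD1 and NICD2. On the brighter probe the log2 values were 1.62, -0.60 and 0.95 with GFP, -0.30, 0.07 and 0.19 with NICD1, 1.50, 1.35 and 1.10 with NICD2, and 0.76 and 1.56 with NICD1&2. All NICD1 arrays lay below all NICD2 arrays and both NICD1&2 arrays, and the GFP arrays, 4.65-fold apart, covered the whole range. NICD1 was -1.33 below NICD2 (SE 0.49, adjusted p = 1.0), a 2.51-fold lower level that met the definition of altered, and the difference was -1.72 within slide 1 and -0.97 within slide 2. Against GFP, Lcn2 was at -0.67 with NICD1 (SE 0.49, adjusted p = 0.914), at 0.66 with NICD2 (SE 0.49, adjusted p = 0.890) and at 0.50 with NICD1&2 (SE 0.54, adjusted p = 0.648). The NICD2 and NICD1&2 values rested on GFP array 2, the lowest of the 11, and the NICD1 value on GFP array 1, the highest. Without GFP array 2 they were -1.30, 0.03 and -0.12 for NICD1, NICD2 and NICD1&2, and without GFP array 1 they were -0.19, 1.14 and 0.99.

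The second Lcn2 probe gave -0.53, -2.48 and -1.31 with GFP, -2.57, -2.61 and -2.08 with NICD1, -0.67, -0.75 and -1.37 with NICD2, and -1.32 and -0.93 with NICD1&2. Both probes thus put NICD1 below NICD2, here by -1.49 (SE 0.43, adjusted p = 1.0), and r between them over the 11 arrays was 0.960 (rho 0.909). Against GFP this probe was at -0.98 with NICD1 (SE 0.43, adjusted p = 0.901), which met the definition of altered, unlike the brighter probe, though the arrays overlapped. It was at 0.51 with NICD2 (SE 0.43, adjusted p = 0.922) and at 0.32 with NICD1&2 (SE 0.49, adjusted p = 0.749). Lcn2 is also stored in the granules of neutrophils. Of the 10 neutrophil markers with a probe, 7 were well above background on all GFP arrays and 8 on all arrays of each NICD group, Ltf was on none, and their summed linear level was 54.0 to 60.6 with GFP, 51.6 to 62.7 with NICD1, 53.2 to 63.1 with NICD2 and 52.1 to 57.9 with NICD1&2. The probe of Csf3r, the receptor of granulocyte colony-stimulating factor, made up 91.6% to 94.8% of that sum on every array. Without it the sum was 3.56 to 4.27 with GFP, 3.06 to 3.35 with NICD1, 3.26 to 3.85 with NICD2 and 3.49 to 4.37 with NICD1&2. The NICD1 arrays then lay below all GFP and NICD1&2 arrays and overlapped those with NICD2. Of the 9 markers tested between NICD1 and NICD2, 3 had higher and 6 lower means with NICD1, with a median of -0.06, and none was called. For 2 of the 9, S100a8, an abundant neutrophil gene, and Retnlg, all NICD1 arrays lay below all NICD2 arrays, against 9.31% of probes in either direction. The differences were -0.33 and -0.37, or -0.22 and -0.23 without NICD2 array 2, and neither gene was altered by the study definition. Ngp went the other way, at 0.30 with overlapping arrays. The part of neutrophils in the Lcn2 values was not tested.

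Hp and Hpx, the scavengers of haemoglobin and haem, had the highest means in the NICD1&2 group. Hp had log2 values of 9.28, 9.21 and 9.32 with GFP, 9.18, 9.33 and 8.89 with NICD1, 9.30, 9.30 and 9.35 with NICD2, and 9.57 and 9.61 with NICD1&2. Both NICD1&2 arrays lay above the other 9. Hpx had 9.80, 9.68 and 9.64 with GFP, 9.40, 9.57 and 9.39 with NICD1, 9.75, 9.65 and 9.94 with NICD2, and 9.82 and 10.08 with NICD1&2. The 3 NICD1 arrays were the lowest of the 11 for Hpx. With NICD1&2, Hp differed from GFP by 0.32 (SE 0.13, adjusted p = 0.309) and Hpx by 0.24 (SE 0.13, adjusted p = 0.399). After quantile normalization these differences were 0.05 and 0.04. With NICD1 the difference was -0.14 (SE 0.12, adjusted p = 0.923) for Hp and -0.26 (SE 0.12, adjusted p = 0.901) for Hpx, which became -0.02 and -0.11 after quantile normalization. With NICD2 it was 0.05 (SE 0.12, adjusted p = 0.985) and 0.07 (SE 0.12, adjusted p = 0.972). The summed level of the red blood cell markers, the source of haemoglobin, was 299 to 341 with GFP, 261 to 297 with NICD1, 266 to 387 with NICD2 and 293 to 516 with NICD1&2. Its part in the Hp and Hpx values was not tested.

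**Figure D4:**
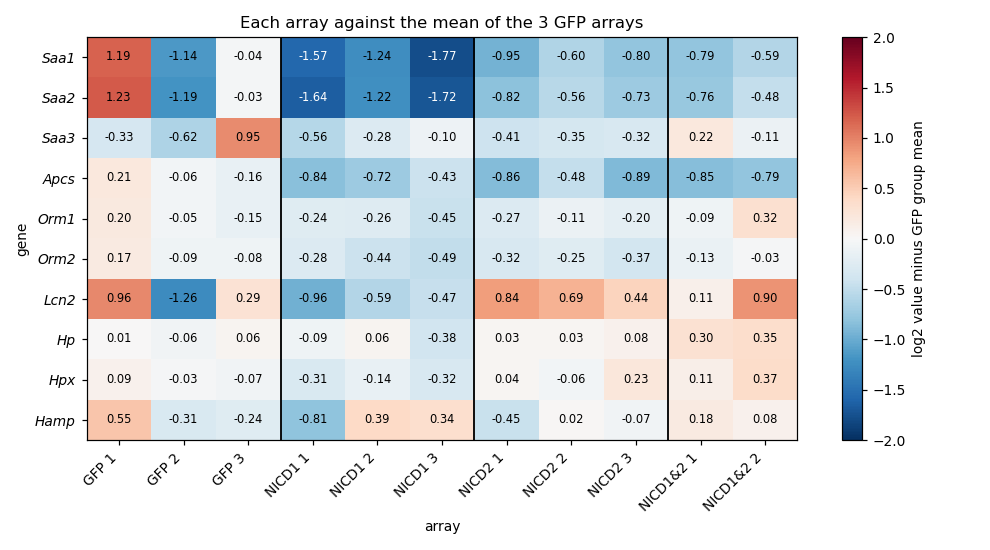
Log2 value of each of 10 acute phase genes (rows) on each of 11 arrays (columns) minus the mean of the 3 GFP arrays, with colour from -2 (blue) to 2 (red). GFP arrays 1 and 2 lie on opposite sides for Saa1, Saa2 and Lcn2, Apcs is below 0 on all NICD arrays, and Lcn2 is below 0 with NICD1 and above 0 with NICD2 and NICD1&2.

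Hamp, the hormone of iron balance, had log2 values of 8.00, 7.14 and 7.21 with GFP, 6.64, 7.85 and 7.79 with NICD1, 7.01, 7.47 and 7.38 with NICD2, and 7.63 and 7.53 with NICD1&2. Arrays of one group were as far apart as arrays of different groups, with NICD1 array 1 the lowest and GFP array 1 the highest. Differences from GFP were -0.02 (95% interval -0.80 to 0.75) with NICD1, -0.17 (-0.94 to 0.61) with NICD2 and 0.13 (-0.73 to 0.998) with NICD1&2, and the sign changed in each of the 3 when single arrays were left out. Hepcidin is set by a pathway of bone morphogenetic proteins and SMAD factors, by the iron sensors Hfe, Tfr2 and Hjv, and by interleukin-6 through STAT3. Of 14 tested genes of this control, none was called in any comparison. Smad6, an inhibitor of the pathway, had log2 values of -0.26, -0.32 and -0.49 with GFP, -0.71, -0.79 and -1.13 with NICD1, -1.20, -1.39 and -1.55 with NICD2, and -0.86 and -0.75 with NICD1&2. All 8 NICD arrays lay below all GFP arrays, with differences of -0.52 (SE 0.14, adjusted p = 0.741), -1.02 (SE 0.14, adjusted p = 0.0616) and -0.45 (SE 0.16, adjusted p = 0.266). Id1, a target of the same pathway, had 2.92, 1.43 and 1.54 with GFP, 0.76, 1.18 and 1.21 with NICD1, 2.28, 2.03 and 1.89 with NICD2, and 3.18 and 2.78 with NICD1&2. NICD1 was the lowest group for Id1, with a difference from GFP of -0.92 (SE 0.36, adjusted p = 0.883) that was -0.44 without GFP array 1. NICD1&2 exceeded NICD1 by 1.93 (SE 0.40, adjusted p = 0.290), which passed the threshold without GFP array 1 (adjusted p = 0.0385). That array is in neither group, so the 1.93 stayed the same and only the shared estimate of spread fell. Hamp2, the second mouse hepcidin gene and not a member, had 4.21, 4.13 and 3.31 with GFP, 4.37, 3.86 and 4.20 with NICD1, 5.45, 4.62 and 4.80 with NICD2, and 4.57 and 4.50 with NICD1&2. NICD2 was above GFP by a difference of 1.07 (SE 0.28, adjusted p = 0.400). All 3 NICD2 arrays lay above all GFP arrays for Hamp2, whereas those of Hamp overlapped GFP, and neither gene passed the threshold.

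Between NICD1 and NICD2, 7 of the 10 genes had the lower mean with NICD1, with a median log2 difference of -0.15. The median was -0.04 after quantile normalization, -0.03 with normexp background correction before it, and -0.06 without NICD1 array 3, when all 10 genes were lower. None was called, against 0.00277% of probes, and 2 (Lcn2 and Hpx) had an unadjusted p under 0.05, against 3.74%. That count was 0 without NICD1 array 1, 1 after quantile normalization and 4 without GFP array 1 or 2. Lcn2 was altered by the definition of the study, against 1.26% of probes. Saa1, Saa2, Lcn2 and Hpx had all NICD1 arrays below all NICD2 arrays, 4 of 10 beside 9.31% of probes. The differences were -0.75 (SE 0.47) for Saa1, -0.82 (SE 0.49) for Saa2 and -0.33 (SE 0.12) for Hpx, each with an adjusted p of 1.0. Hpx was at -0.19 after quantile normalization and at -0.14 with normexp. These 3 values do not involve the widely spread GFP arrays except through the shared estimate of spread.

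Against NICD1, NICD1&2 had the higher mean in 9 of the 10 genes, all but Apcs, with a median of 0.45 beside 0.10 over all probes. None was called, against 0.0139% of probes, and 4 (Hp, Hpx, Orm1 and Orm2) had an unadjusted p under 0.05, against 12.5%. With single arrays left out 2 to 7 did, the lowest without NICD1 array 3 or NICD1&2 array 2 and the highest without GFP array 1 or 2, and with the replicate block 2 did. After quantile normalization 0 did, against 11.7%, the median was 0.15, and Hp went from 0.46 to 0.06, Hpx from 0.50 to 0.15, Orm1 from 0.43 to 0.15 and Orm2 from 0.32 to 0.07. Lcn2 at 1.17 (SE 0.54, adjusted p = 0.414) and Saa2 at 0.91 (SE 0.55, adjusted p = 0.497) were altered by the study definition, against 2.70% of probes. Saa2 met that definition in 8 of 21 alternative settings and Lcn2 in 20 of 21. Without NICD1&2 array 2 neither was altered. Both NICD1&2 arrays lay above all NICD1 arrays for 7 genes, Saa1, Saa2, Lcn2, Orm1, Orm2, Hp and Hpx, against 30.7% of probes in either direction. Against NICD2, 8 genes had higher means with a median of 0.20, none was called against 0.00277% of probes, and 0 had an unadjusted p under 0.05, against 8.90%. None was altered, against 3.06%, and 5 genes (Saa3, Orm1, Orm2, Hp and Hamp) did not overlap, all higher, against 25.2% of probes. After quantile normalization the split was 5 higher and 5 lower with a median of -0.016, and without NICD1&2 array 2 it was 6 higher and 4 lower with a median of 0.08.

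The interaction asks whether both vectors together gave more or less than the sum of their single differences from GFP. It was above 0 for all 10 genes, with a median of 0.61 beside 0.07 over all probes. None was called, against 0% of probes, and 6 of 10 had an unadjusted p under 0.05, against 7.03%. After quantile normalization 1 of 10 did, against 7.47%, and with single arrays left out 1 to 6 did. Orm2 was at 0.64 (SE 0.16, adjusted p = 0.594), Orm1 at 0.63 (SE 0.21, adjusted p = 0.691), Apcs at 0.59 (SE 0.24, adjusted p = 0.709) and Saa1 at 1.62 (SE 0.71, adjusted p = 0.709). The Apcs means with NICD1, NICD2 and NICD1&2 were 2.51, 2.43 and 2.35. After quantile normalization the median was 0.44, and Hp went from 0.41 to 0.03 (SE 0.14), Hpx from 0.43 to 0.06 (SE 0.13), Orm1 to 0.35 (SE 0.20) and Orm2 to 0.40 (SE 0.19), while Saa1 stayed at 1.45 (SE 0.70) and Apcs at 0.56 (SE 0.24). The GFP arrays enter each of these values, and for Saa1 the interaction was 1.03 without GFP array 1 and 2.19 without GFP array 2.

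Genes differed widely in their spread between arrays of one group. The pooled SD within groups was 0.65 for Saa1, 0.67 for Saa2, 0.67 for Lcn2, 0.47 for Saa3 and 0.46 for Hamp on the log2 scale, larger than that of 88.9%, 89.7%, 89.6%, 80.1% and 79.6% of tested probes. It was 0.20 for Apcs, 0.16 for Orm1, 0.13 for Hpx, 0.12 for Hp and 0.11 for Orm2, below the median probe at 0.22. Without GFP array 1 it was 0.37 for Saa1 and 0.39 for Saa2, so this single array made up a large share of their spread. The level of Saa1 was 5.03-fold apart between GFP arrays and 1.28-fold between NICD2 arrays.

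Saa1 and Saa2, and less closely Orm1 and Orm2, had similar orders of the arrays. Over the 11 arrays, which include the group differences, r was 0.997 (rho 0.991) between Saa1 and Saa2, 0.863 (rho 0.891) between Orm1 and Orm2, and 0.802 (rho 0.718) between Hp and Hpx. After the group means were subtracted, these were 0.997, 0.787 and 0.430. Saa3 had r of 0.280 (rho 0.291) with Saa1 and 0.285 (rho 0.255) with Saa2, and 0.102 and 0.118 within groups. Without GFP 1 these r over the arrays were 0.632 and 0.621, and without GFP 1 and NICD1 3 they were 0.799 and 0.761, so the low values of Saa3 rested on those arrays. Saa2 and Lcn2 had r of 0.708 over all arrays and 0.891 within groups. Among 13864 genes well above background on all arrays, those with the highest r to Saa1 after Saa2 were Itih4 (0.942), C4b (0.924), Orm3 (0.903) and Lsp1 (0.896), of which Itih4 and Orm3 are other acute phase proteins and C4b is a complement component made by the liver. Without GFP 1 and NICD1 3, the arrays farthest from the Saa1 median, r was 0.814 for Itih4, 0.673 for C4b, 0.753 for Orm3 and 0.905 for Lsp1. The genes most like Lcn2 included B930025P03Rik (0.901), Ccndbp1 (0.877), Faap24 (0.860) and Fbxl20 (0.857), and those most like Hamp included Zfp429 (0.893), Snrnp48 (0.883), Dclre1c (0.862) and Snhg6 (0.843). These values describe 11 arrays and were picked as the highest of many.

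The 17 other acute phase proteins on a fixed list (among them Orm3, Itih4, fibrinogen chains, Serpina3n and Lrg1) had lower means than GFP in 14 of 17 genes with NICD1, in 10 with NICD2 and in 9 with NICD1&2, with medians of -0.21, -0.08 and -0.07. None was called in any of the comparisons. With NICD1, 7 of the 17 had all arrays below all GFP arrays and 0 above, against 12.4% of probes in either direction. With NICD2, 3 were below and 3 above, against 13.4%, and with NICD1&2, 6 were below and 5 above, against 34.5%. Fgl1, a liver protein induced by interleukin-6, had 7.72, 6.44 and 6.95 with GFP, 6.14, 6.09 and 6.57 with NICD1, 5.83, 6.53 and 6.11 with NICD2, and 6.02 and 6.24 with NICD1&2. All 3 groups had lower means than GFP, by -0.77 (SE 0.31, adjusted p = 0.884), -0.88 (SE 0.31, adjusted p = 0.602) and -0.91 (SE 0.35, adjusted p = 0.293). GFP array 1, the highest for Fgl1 at 7.72, enters all 3 differences, and without it each is weaker. The last was then -0.57. The 8 negative acute phase proteins, such as albumin and transthyretin, had lower means in 7 genes with NICD1 and in 5 with NICD2, and higher means in all 8 with NICD1&2, with medians of -0.15, -0.02 and 0.14. With NICD1&2 the median over all probes was 0.12 and 65.0% of probes were higher, so that these 8 genes lay close to the shift of the whole array. None of the 8 was called or altered. With NICD1 positive and negative acute phase genes therefore both had medians below 0.

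Among the inducing cytokines, Il1b (interleukin-1 beta) set the GFP arrays apart as Apcs did. It had log2 values of -0.44, -0.73 and -0.40 with GFP, -2.53, -2.60 and -2.45 with NICD1, -3.46, -3.31 and -1.82 with NICD2, and -2.36 and -2.17 with NICD1&2, and was well above background on all 11 arrays. All 8 NICD arrays lay below all GFP arrays. The differences were -2.0 (SE 0.37, adjusted p = 0.593), -2.34 (SE 0.37, adjusted p = 0.0987) and -1.74 (SE 0.41, adjusted p = 0.166). Without NICD2 array 3, which lay apart from the other NICD2 arrays, all 3 passed the threshold, with adjusted p of 0.00489, 0.000400 and 0.00916. That array is in neither the NICD1 nor the NICD1&2 group, so those differences stayed the same and only the shared estimate of spread fell. As the array stands out by its Il1b value itself, these p-values are no separate support. Il6 was well above background on 1 of 11 arrays and was not tested. Its highest value, -4.83, was on GFP array 1, where the lowest value flagged well above background was -4.95. Of the 8 cytokines, 6 were tested with none called. On GFP array 1, the highest for Saa1 and Saa2, the Il1b value of -0.44 lay between those of the other GFP arrays.

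Il6ra, the receptor subunit that binds interleukin-6, had log2 values of 4.16, 4.07 and 4.74 with GFP, 4.67, 5.02 and 4.65 with NICD1, 5.37, 5.41 and 5.35 with NICD2, and 5.64 and 5.31 with NICD1&2. All NICD2 and NICD1&2 arrays lay above all others. The differences from GFP were 1.06 (SE 0.19, adjusted p = 0.152) with NICD2 and 1.16 (SE 0.21, adjusted p = 0.105) with NICD1&2. Of the 8 cytokine receptors tested none was called, and Il6ra was the 1 altered by the study definition in those 2 comparisons.

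Among the 11 signal transducers and feedback genes none was called. Cebpd, a C/EBP factor induced in the acute phase, had 2.30, 3.06 and 3.74 with GFP, 3.21, 3.63 and 3.60 with NICD1, 4.23, 4.06 and 3.95 with NICD2, and 4.01 and 4.16 with NICD1&2. The NICD2 and NICD1&2 arrays lay above all GFP arrays, by 1.04 (SE 0.31, adjusted p = 0.480) and 1.05 (SE 0.34, adjusted p = 0.249) in the mean. Without GFP array 1 these were 0.67 and 0.69. Socs3, which blocks signalling from the interleukin-6 receptor and is itself induced by STAT3, had 1.70, 3.39 and 2.39 with GFP, 0.40, 3.08 and 2.21 with NICD1, 0.26, 0.79 and 1.56 with NICD2, and 1.72 and 2.80 with NICD1&2. NICD2 arrays lay below all GFP arrays, with a difference of -1.63 (SE 0.71, adjusted p = 0.721). GFP array 1, the highest for Saa1, was the lowest GFP array for both Cebpd and Socs3.

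**Figure D5:**
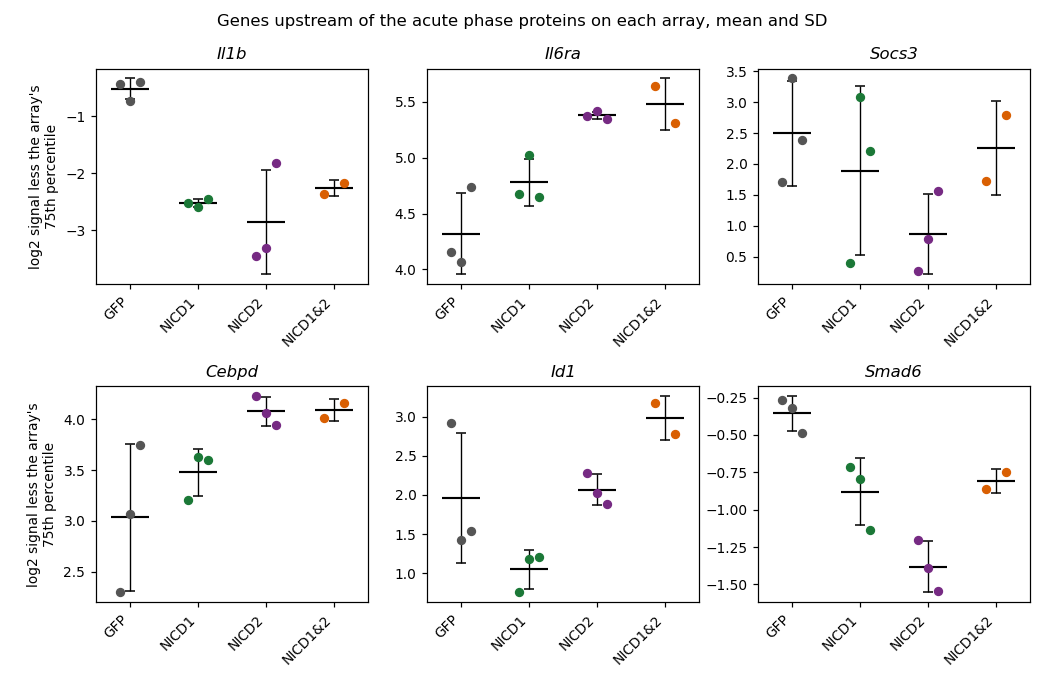
Log2 signal less the 75th percentile of the array for Il1b, Il6ra, Socs3, Cebpd, Id1 and Smad6 on each of 11 arrays (points), with group mean (line) and SD (bar) and a separate y axis for each gene. Il1b is lower on all 8 NICD arrays than on the GFP arrays, Il6ra and Cebpd are higher with NICD2 and NICD1&2 than with GFP, and Smad6 is lowest with NICD2.

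The 9 receptors and partners of the proteins, such as the haemoglobin-haptoglobin receptor Cd163, the hemopexin receptor Lrp1 and the ferroportin gene Slc40a1, had medians of -0.01, -0.01 and 0.06 against GFP with NICD1, NICD2 and NICD1&2, and none was called. Hmox1, the enzyme that breaks down haem, had 2.87 to 3.49 on the GFP arrays, 2.81 to 2.98 with NICD1, 1.91 to 2.93 with NICD2 and 3.45 to 3.60 with NICD1&2. NICD1&2 was above NICD2 by a difference of 0.95 (SE 0.30, adjusted p = 0.561), or 0.61 without NICD2 array 3.

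Markers of other cells gave the following levels beside these results. The 9 macrophage markers were well above background on all arrays, with a summed linear level of 94.4 to 139 with GFP, 94.1 to 106 with NICD1, 97.2 to 110 with NICD2 and 121 to 135 with NICD1&2. Their medians against GFP were -0.26 with NICD1, -0.23 with NICD2 and -0.01 with NICD1&2, and none was called. All 9 had higher means with NICD1&2 than with NICD1, with a median of 0.28. In that comparison 63.5% of all probes were higher, with a median of 0.10. Marco, a scavenger receptor of Kupffer cells, had 2.97 and 4.49 with NICD1&2 and 2.16 to 2.63 with NICD1. Among neutrophil markers Retnlg was altered with NICD1, at -0.99 (SE 0.26, adjusted p = 0.741), and with NICD1&2, at -1.11 (SE 0.29, adjusted p = 0.189). Cxcr2 was altered in the other direction with NICD1&2, at 0.92 (SE 0.43, adjusted p = 0.356) and at 0.44 without GFP array 1, and none of the list was called. Cxcr2 was well above background on 2 of the 3 GFP arrays. GFP array 1, at -5.14, lay under the lowest flagged value of that array (-4.95), so the 0.92 rests partly on a value near the floor. Of 7 bile duct markers, 5 were well above background on all GFP arrays and 6 on all arrays of each NICD group, and they had a summed level of 7.05 to 10.1 with GFP, 22.7 to 30.9 with NICD1, 22.7 to 30.8 with NICD2 and 32.7 to 40.4 with NICD1&2. Without Spp1 (osteopontin), which macrophages also make, the sum was 0.82 to 0.87 with GFP, 0.93 to 1.10 with NICD1, 1.004 to 1.35 with NICD2 and 1.32 to 1.59 with NICD1&2. Spp1 was the 1 called gene on all these lists, at 1.71 (SE 0.20, adjusted p = 0.0964, not called) with NICD1, 1.81 (SE 0.20, adjusted p = 0.0270) with NICD2 and 2.23 (SE 0.22, adjusted p = 0.0111) with NICD1&2. With single arrays left out, the adjusted p of Spp1 reached 0.148 with NICD2 (without NICD2 array 2) and 0.181 with NICD1&2 (without NICD1&2 array 2). Fat tissue markers summed to 1.44 to 1.67 with GFP, 1.03 to 1.37 with NICD1, 1.06 to 1.43 with NICD2 and 1.44 to 1.45 with NICD1&2, with Plin1 well above background on none and Lep making up 77.2% to 91.4% of the sum. The part of these cells in the acute phase values was not tested.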

How the data were processed

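RNA of whole liver was labelled with Cy3 and hybridised to 1-colour Agilent mouse arrays, 1 per sample. Groups were taken from the sample titles, and the labels do not tie each array to a mouse. The methods of the study state that each group of an experiment had at least 3 mice, and the 2 NICD1&2 arrays are fewer. The p-values measure the spread between these arrays. The authors scanned the arrays with Feature Extraction 11.5.1.1 and deposited its processed signal intensity for each of 62976 spots, with background already subtracted, and a table of log2 values normalized in GeneSpring. A comparison with the scanner files showed that each deposited log2 value is the log2 of the processed signal after division by the 75th percentile of that array.

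The 10 genes, the lists and the alternatives were chosen with earlier results of these data known. Where a gene had several probes, the brightest by its mean stood for it. The filter kept 36060 of 56605 probes, those flagged well above background on 2 or more of the 11 arrays. Group means were fitted to the 11 arrays together with limma 3.58.1 in R 4.3.3, and p-values were adjusted by the Benjamini-Hochberg method over all tested probes, with a threshold of 0.05. The model was first tested on simulated data. An exact two-sided permutation test of single genes cannot go below 0.1 with 3 arrays against 3 or, with the smaller tail doubled, below 0.2 with 2 against 3, so it was not used for calls. The number of arrays limits the precision. Genes of the lists were named where they were called, or where they met the definition of altered and the groups did not overlap. Some others, such as S100a8, Ngp and Il6, are given only as description. The rule for naming allowed at most 4 genes of a list in each comparison, and not every gene that qualified is given. A few genes that the rules on likeness and cell type markers would name are not reported here.

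Alternatives were the scanner signals, quantile normalization, normexp background correction (offset 50) with quantile normalization, other filters, only the groups compared, blocks for replicate number and slide, unmoderated variances, the mean of all probes of a gene, and each array left out. The sums of cell markers without the brightest gene of a list, the list genes with each array left out, and the counts at unadjusted p under 0.05 in each setting were added after seeing the data.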

Additional observations from a re-analysis of the deposited data

Results flagged for a closer look

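Lcn2 was below the mean of the GFP arrays on all 3 NICD1 arrays, by -0.67 on average, and above it on all 3 NICD2 arrays (0.66) and both NICD1&2 arrays (0.50). NICD1 against NICD2 was tested directly, with a log2 difference of -1.33 (SE 0.49) and an adjusted p from limma of 1.0, and NICD1&2 against NICD1 gave 1.17 (SE 0.54) with an adjusted p of 0.414. The GFP arrays themselves lay between -0.60 and 1.62.

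Hpx was below the GFP mean on all 3 NICD1 arrays (-0.26 on average) and above it on both NICD1&2 arrays (0.24), and after quantile normalization these were -0.11 and 0.04. The test of NICD1&2 against NICD1 gave 0.50 (SE 0.13) with an adjusted p from limma of 0.344, and 0.14 after normexp background correction with quantile normalization.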

How the results depend on the processing

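None of the 10 genes was called under any alternative except Apcs with NICD1&2 against GFP after normexp background correction with quantile normalization, where 1 gene was called (log2 -0.97). That setting called 346 probes in that comparison, where the main setting called 36. Of 1460 log2 differences recomputed under these alternatives 43 changed sign, none with a main value beyond 0.50 in size, and of 120 differences within slides 16 had the other sign. The cause of these changes was not tested.

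The count altered by the study definition was 0 with NICD2 against GFP and 0 to 2 with single arrays left out. With NICD1&2 against GFP it was 0, but 1 after quantile normalization, 2 with normexp and 0 to 2 with single arrays left out. It was 1 for NICD1 against NICD2 and 1 to 3 with arrays left out. For NICD1&2 against NICD1 it was 2, and 1 each with quantile normalization, normexp, the slide as a block and unmoderated variances, and 0 to 3 with arrays left out. With the replicate block it was also 1 for NICD1&2 against NICD1. Over 15 pairs of arrays with the same number, residual correlations ran from -0.41 to 0.17, with 6 over 0.1, so the numbers were not taken to pair the samples, and the replicate block changed no call at adjusted p under 0.05.

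Signs changed after quantile normalization and after normexp with it as follows. NICD1&2 against NICD2 came to -0.042 and -0.048 for Saa1 and -0.072 and -0.0024 for Saa2. NICD1&2 against GFP came to -0.0069 and -0.15 for Saa3, -0.077 and -0.041 for Orm1, and -0.081 and -0.016 for Hamp. Hamp came to 0.021 and 0.091 with NICD1 against GFP and to -0.10 and -0.11 with NICD1&2 against NICD1. Quantile normalization alone gave -0.046 for Hpx with NICD1&2 against NICD2. Normexp alone gave -0.00091 for Orm2 with NICD1&2 against NICD2, and for Hp -0.019 with NICD2 against GFP and 0.0066 with NICD1 against NICD2. With the slide as a block Saa3 was -0.018 with NICD1&2 against GFP and -0.10 with NICD1 against NICD2.

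With each array left out in turn, values against GFP ran from -0.62 to 0.16 (NICD1), -0.67 to 0.11 (NICD2) and -0.26 to 0.53 (NICD1&2) for Saa3, from -0.23 to 0.37, -0.32 to 0.11 and -0.024 to 0.41 for Hamp, and from -0.0099 to 0.14 for Hpx with NICD2. With NICD1&2 they ran from -0.12 to 0.99 for Lcn2, -0.086 to 0.32 for Orm1 and -0.13 to 0.0079 for Orm2. NICD1 against NICD2 ran from -0.062 to 0.17 for Saa3, -0.037 to 0.21 for Apcs and -0.066 to 0.53 for Hamp. NICD1&2 against NICD2 ran from -0.011 to 0.20 for Saa1, -0.057 to 0.23 for Saa2, -0.55 to 0.24 for Lcn2 and -0.15 to 0.059 for Apcs. NICD1&2 against NICD1 ran from -0.23 to 0.37 for Hamp, and its interaction from -0.067 to 0.53.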
